A study of Homo sapiens with 6 samples.

Results

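DPF3a and SMAD4 peaks in 786-O cells were set against each other, site by site and gene by gene. A DPF3a peak and a SMAD4 peak were called a pair where their overlap covered at least 0.5 of both. This gave 30567 one-to-one pairs, from 51530 DPF3a and 46367 SMAD4 peaks, out of 118277 peaks in the 3 peak lists of the study. At gene level, the 20015 protein-coding genes were sorted by whether a peak summit of either factor lay in the gene or up to 5000 bp upstream of its start.

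DPF3a is the short isoform of DPF3, an accessory subunit of the SWI/SNF (BAF) complexes, which use ATP to slide or evict nucleosomes and so open promoters and enhancers. SMAD4 is the common partner of the receptor-activated SMAD proteins: ligands of the TGF-β and BMP families activate receptor kinases, the kinases phosphorylate SMAD2 and SMAD3 or SMAD1 and SMAD5, and these enter the nucleus with SMAD4. SMAD proteins bind DNA weakly on their own and are known to share sites with other factors, among them AP-1, the JUN and FOS dimers that occupy many enhancers of epithelial and mesenchymal cells.

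The 786-O line comes from a clear cell renal cell carcinoma. DPF3a was precipitated through an HA tag from cells that overexpressed the tagged protein, and its chromatin was fixed with DSG followed by formaldehyde. SMAD4 was precipitated from chromatin fixed with formaldehyde alone, and the labels do not say whether those cells overexpressed DPF3a. Each factor had 2 libraries, 4 of the 6 samples of the series, and each factor has 1 peak list for both, so no value below has an error between replicates. How both libraries were combined is not given in the sources used here. The intervals given are 95% Wilson intervals for shares and binomial intervals for medians, and they cover counting error only. The fold enrichment of a peak is the read pileup at its summit over the local background, each plus 1. The pileup and the background follow from the deposited values, and the lowest background corresponds to 15.8 M reads for DPF3a and 30.4 M for SMAD4. At the summit, the median peak held 25 reads for DPF3a (range 11 to 223) and 39 for SMAD4 (14 to 389). Because fixation, antibody and depth differ, strength was compared as a percentile within each list, where 100 is the strongest peak. How far those differences enter the results was not tested.

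The sequences below are windows of 101 bp of the hg38 reference, written on its forward strand, each around a DPF3a summit, except the last, which is around a SMAD4 summit. They are examples of strong pairs and of sites at TGF-β pathway genes, and the last was chosen for its SMAD palindrome. Capitals mark exact matches to a searched consensus on either strand. Every printed window holds a match, so they do not show how often such letters recur. The windows at THEMIS2 and ENSG00000286022, also among the 5 strongest pairs, held none. Nor did those examined at LTBP1, TGFB1, ACVR1, TGFBR3, SMAD6, PMEPA1, COL4A2, TGFBI and HMGA2. The window upstream of INA, a neurofilament protein gene, belongs to 1 of the 5 strongest pairs, and its capitals are the AP-1 consensus TGACTCA read on the other strand.
INA, chr10:103273103-103273203: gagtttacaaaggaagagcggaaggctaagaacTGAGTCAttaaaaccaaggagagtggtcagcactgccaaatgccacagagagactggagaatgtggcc
The window in intron 3 of TSPAN18, a tetraspanin gene, belongs to another of those 5 pairs and holds the RUNX consensus TGTGGTTT on the other strand.
TSPAN18, chr11:44862315-44862415: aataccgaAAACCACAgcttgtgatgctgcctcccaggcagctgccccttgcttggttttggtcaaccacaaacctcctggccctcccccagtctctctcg
SMAD3, a receptor-activated SMAD of the TGF-β branch, has the AP-1 consensus near the end of a window in its intron 1.
SMAD3, chr15:67091345-67091445: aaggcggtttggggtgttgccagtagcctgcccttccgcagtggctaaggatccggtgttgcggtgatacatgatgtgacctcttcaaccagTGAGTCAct
GDF15, a distant member of the TGF-β ligand family, has an AP-1 consensus followed by the SP/KLF consensus GGGGCGGGG just upstream of its start.
GDF15, chr19:18374578-18374678: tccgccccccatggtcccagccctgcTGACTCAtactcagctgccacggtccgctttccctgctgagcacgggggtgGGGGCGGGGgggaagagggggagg
BMPR1B, a type I BMP receptor, has the SMAD palindrome GTCTAGAC in intron 9, at the gene's strongest pair by product of percentiles.
BMPR1B, chr4:95130078-95130178: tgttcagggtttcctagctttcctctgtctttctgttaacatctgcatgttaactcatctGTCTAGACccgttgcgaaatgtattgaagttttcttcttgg
FSTL1, a secreted follistatin-like protein, has the same palindrome under a SMAD4 peak of 204 reads that touched no DPF3a peak. The palindrome is rare, at 26 of 30567 paired DPF3a summits (0.0851%).
FSTL1, chr3:120439054-120439154: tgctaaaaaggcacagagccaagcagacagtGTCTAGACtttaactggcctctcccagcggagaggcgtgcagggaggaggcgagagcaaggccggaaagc

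The strengths of the factors at shared sites depended on the class of site. Pairs with both summits in a promoter, defined as 1000 bp upstream to 100 bp downstream of any annotated transcript start, numbered 7390 (24.2% of the pairs). There SMAD4 was the stronger factor in its own list: the median percentile was 36.3 for DPF3a and 74.7 for SMAD4, and DPF3a had the higher percentile in 18.1% of pairs (interval 17.3 to 19.0). At the 22423 distal pairs (73.4%), with neither summit in a promoter, the order turned, with median percentiles of 68.7 for DPF3a and 52.3 for SMAD4 and DPF3a higher in 65.7% (65.1 to 66.4). The remaining 754 pairs, with 1 summit in a promoter, resembled the promoter pairs, with DPF3a higher in 16.7%. Spearman's rank correlation between the percentiles was 0.36 over all pairs, 0.28 at promoter pairs and 0.57 at distal pairs. Peaks on the same sequence share its base composition and mappability, and peaks of 1 list share its libraries, so these coefficients are given as descriptions.

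**Figure D1:**
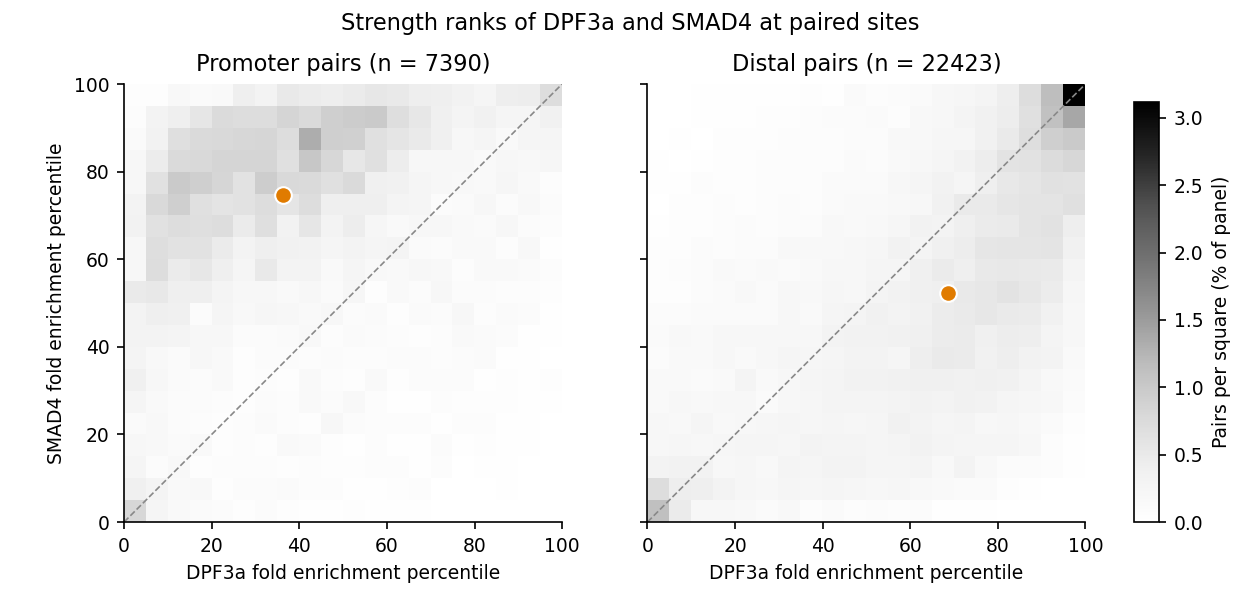
Fold enrichment percentile of DPF3a (x axis) and of SMAD4 (y axis) at paired sites, in squares of 5 by 5 percentile points shaded by their share of the pairs in the panel. The dashed line marks equal percentiles and the orange point the medians, 36.3 and 74.7 at the 7390 promoter pairs (left) and 68.7 and 52.3 at the 22423 distal pairs (right), where the darkest square is the corner strongest for both factors.

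The same division was seen in reads, which do not depend on the ratio to background. The median promoter pair held 23 DPF3a reads (quartiles 18 and 32) and 74 SMAD4 reads (52 and 98) at the summits, whereas the median distal pair held 37 of each (25 to 57 for DPF3a, 25 to 61 for SMAD4). DPF3a therefore had fewer reads at promoters than at distal sites, and SMAD4 had more. The local background moved the same way for SMAD4, with medians of 7.76 reads at promoter pairs and 4.72 at distal pairs, and little for DPF3a (3.10 and 3.56). When peaks were ranked by reads instead of fold enrichment, DPF3a ranked higher in 18.5% of promoter pairs and 76.6% of distal pairs, and by −log10 q in 18.1% and 73.2%. Peak widths followed the strengths. At promoter pairs the median width was 713 bp for DPF3a and 874 bp for SMAD4, and SMAD4 was the wider in 74.7% (73.7 to 75.7). At distal pairs the medians were 582 and 520 bp, and SMAD4 was the wider in 36.3% (35.7 to 37.0). The median of the ratio of SMAD4 to DPF3a width was 1.18 (1.17 to 1.19) at promoter pairs, 0.916 (0.912 to 0.921) at distal pairs and 0.978 over all pairs, so the overall ratio describes neither class.

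**Figure D2:**
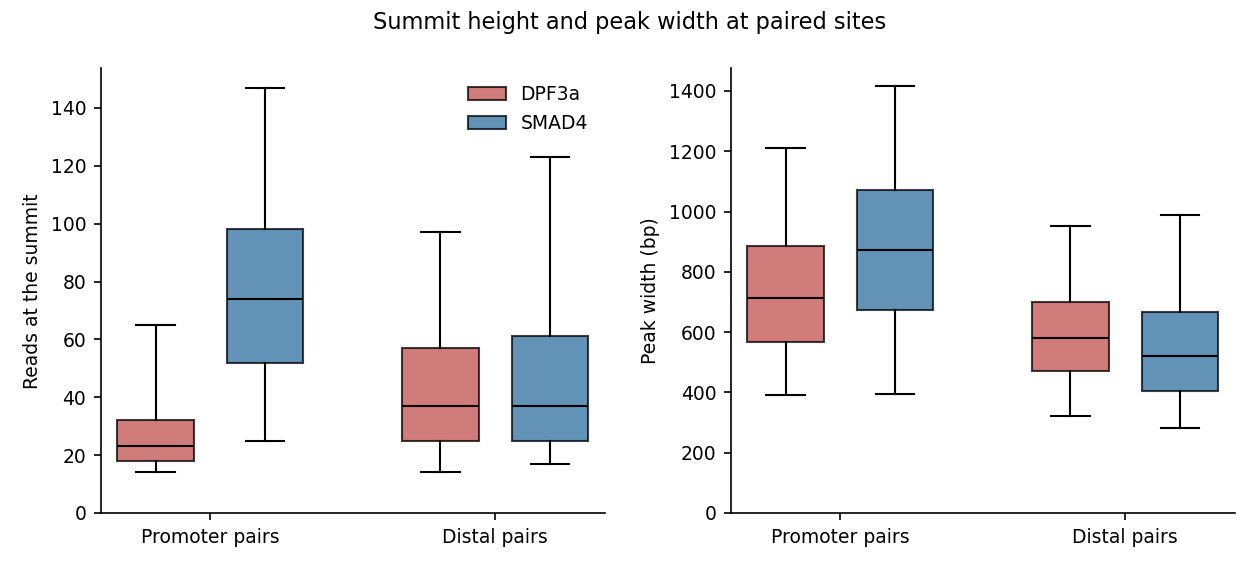
Reads at the summit (left) and peak width in bp (right) of DPF3a and SMAD4 at promoter and distal pairs. Boxes span the quartiles with a line at the median and whiskers reach the 5th and 95th percentiles. SMAD4 stands above DPF3a in both measures at promoter pairs (74 against 23 reads, 874 against 713 bp), and the read medians are equal at distal pairs (37).

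The corners of this comparison held different kinds of site. In 4759 pairs (15.6%) both peaks were in the top 25% of their list, and 89.5% of these were distal. In 541 pairs (1.77%) DPF3a was in its top 25% and SMAD4 in its bottom 25%. These were distal in 94.3%, with medians of 43 DPF3a and 19 SMAD4 reads. In 4.25% (2.85 to 6.30) of them the DPF3a peak overlapped a p300 peak by the same rule. Such pairs are called shared with p300, and the SMAD4 peak was not compared with p300 for this. The opposite corner, with DPF3a in the bottom and SMAD4 in the top 25%, held 1096 pairs (3.59%). These lay in promoters in 79.7% (77.2 to 81.9), with 18 and 85 reads, and 61.3% (58.4 to 64.2) were shared with p300, a histone acetyltransferase of active promoters and enhancers. Among all promoter pairs 53.9% were shared with p300, and among all distal pairs 15.2%. The median GC content of 101 bp at the DPF3a summit was 43.6% in the first corner and 69.3% in the second, against 50.5% where both were strong. Only 134 pairs of the second corner were distal.

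Single sites illustrate both corners. The pair with the largest lead of DPF3a was in intron 4 of SUB1, which encodes a transcriptional coactivator, with 76 DPF3a and 24 SMAD4 reads and fold enrichments of 13.7 and 3.75 at summits 11 bp apart. NXPH1, a neurexophilin gene, had 72 and 16 reads in intron 2, and a site in intron 14 of MAP3K14, the NF-κB inducing kinase, and upstream of SPATA32 had 66 and 30. The other pairs of this kind were in the last exons of ICMT, a protein methyltransferase gene (63 and 24 reads), and HNRNPDL, an RNA-binding protein gene (50 and 33). None of the 5 was in a promoter or shared with p300. The 5 pairs with the largest lead of SMAD4 were all promoter pairs. PRKAB2, a regulatory subunit gene of AMP-activated kinase, had 27 DPF3a and 249 SMAD4 reads with summits 137 bp downstream and 52 bp upstream of the gene start, and fold enrichments of 3.85 and 14.6. PTPDC1, a phosphatase gene, had 19 and 169 reads, and NDC1, which encodes a nuclear pore protein, had 25 and 131. The pairs in SEC11A (17 and 110 reads), a signal peptidase gene, and GNB5 (23 and 87), a G protein subunit gene, lay at starts of transcripts inside the gene, 30958 bp and 46564 bp from the gene start. PRKAB2, PTPDC1 and NDC1 were shared with p300, and SEC11A and GNB5 were not.

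How often a peak met the other factor depended on its own strength, and differently for each factor. Each list was divided into 10 bins of 10 percentile points, which held between 5140 and 5166 DPF3a peaks and between 4381 and 4888 SMAD4 peaks. Outside promoters, the paired share of SMAD4 peaks rose from 45.4% in the weakest bin (interval 43.8 to 47.1) to 92.1% in the strongest (91.0 to 93.0). The DPF3a share outside promoters was 42.0% in the weakest bin, lowest in the third at 32.7% (31.3 to 34.3) and highest in the strongest at 86.9% (85.9 to 87.8). Thus the strongest distal peaks of either factor were mostly at sites of the other. In promoters the lists were not alike. A DPF3a promoter peak touched a SMAD4 peak by at least 1 bp in 91.5% of cases (90.9 to 92.0), between 89.4% and 94.2% in every bin, so even weak DPF3a promoter peaks lay where SMAD4 was. A SMAD4 promoter peak touched a DPF3a peak in 69.8% (69.1 to 70.6), from 34.6% in the weakest bin to 90.1% in the strongest. Overlap by 0.5 of both was rarer for weak DPF3a promoter peaks (56.1% in the weakest bin, 91.3% in the strongest).

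**Figure D3:**
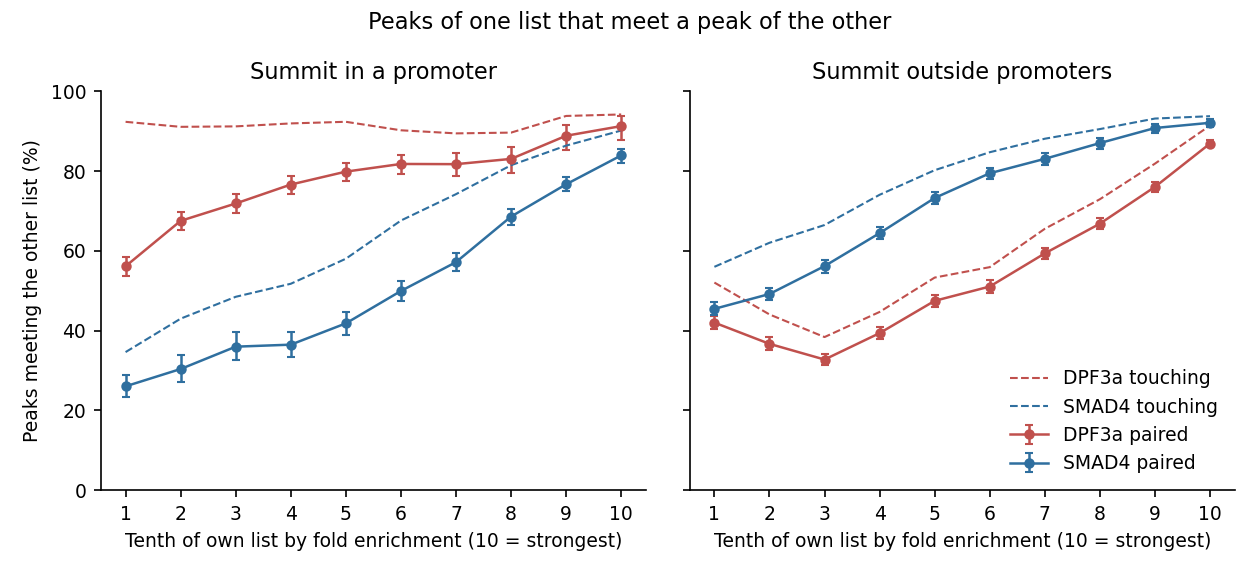
Share of the peaks of each list that met the other list, by bins of the own list's strength (10 is the strongest), for peaks with the summit in a promoter (left) and outside (right). Points with 95% Wilson intervals count pairs and dashed lines any overlap of 1 bp. The DPF3a dashed line in promoters stays between 89.4% and 94.2%, whereas the SMAD4 dashed line climbs from 34.6% to 90.1%.

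Peaks without a partner differed in place. Of the DPF3a peaks, 16608 (32.2%) touched no SMAD4 peak; 5.31% of them were in promoters, and their median width was 404 bp with 18 reads. Of the SMAD4 peaks, 11646 (25.1%) touched no DPF3a peak, and 35.8% (34.9 to 36.7) of them were in promoters, with a median width of 442 bp and 28 reads. A further 4355 DPF3a and 4154 SMAD4 peaks touched without reaching the overlap of a pair. By chromosome, the share of DPF3a peaks in pairs was lowest on chromosomes 13 (42.1%) and X (46.4%) and highest on 22 (72.6%), with Y left aside.

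The summits of a pair lay close together. The median distance was 49 bp (interval 48 to 50, quartiles 21 and 96), 51.2% of pairs were within 50 bp and 91.8% within 200 bp. Stronger pairs were tighter: pairs with both peaks in the top 25% had a median of 30 bp. They also held more reads, with medians of 64 for DPF3a and 70 for SMAD4 against 32 and 45 over all pairs. How far read number enters the distance was not tested. When distal pairs were split by the lower of both percentiles at 25, 50 and 75, the median fell from 53 bp through 50 and 40 to 30 bp, and at promoter pairs from 93 through 72 and 54 to 33 bp. The median over all pairs was 69 bp at promoters and 43 bp at distal sites, and promoter pairs were the wider apart in each of the 4 groups. The intervals were apart in the group from 50 to 75 (49 to 57 bp at promoters, 39 to 42 outside) and overlapped in the strongest group (30 to 37 and 29 to 31). At the 4544 pairs beside a single protein-coding start, the median summit lay 68 bp downstream of the start for DPF3a (quartiles −135 and 212) and 67 bp downstream for SMAD4 (−80 and 155). The summits of both lists were therefore centred alike, but those of DPF3a were spread more widely. Their median distance to the start, in either direction, was 176 bp against 127 bp. DPF3a also had fewer reads at promoter pairs (median 23 against 74). How far this enters the spread, or the distance between the summits of promoter pairs, was not tested. The SMAD4 summit was the one further downstream in 52.3% of pairs (50.9 to 53.8).

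**Figure D4:**
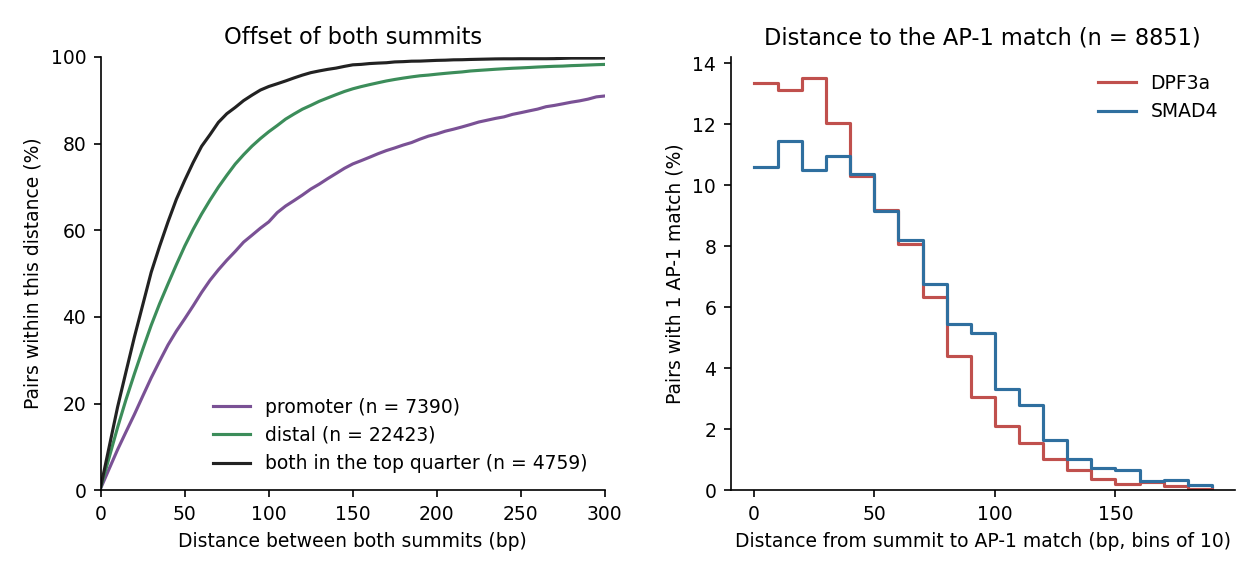
Left, cumulative share of pairs by the distance between both summits in bp, for promoter pairs, distal pairs and pairs with both peaks in the top 25% of their list, whose medians are 69, 43 and 30 bp. Right, distance in bins of 10 bp from each summit to the AP-1 consensus at the 8851 pairs with exactly 1 match, where the DPF3a line is above the SMAD4 line up to 40 bp (medians 38 and 46 bp).

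The AP-1 consensus gave a point on the DNA from which both summits could be measured. At the 8851 pairs with exactly 1 match within 100 bp of the midpoint of the summits, the DPF3a summit was a median of 38 bp (37 to 39) from the match and the SMAD4 summit 46 bp (45 to 47). DPF3a was the nearer in 57.0% of pairs with unequal distances (55.9 to 58.0). The order was the same in promoter pairs (43 and 49 bp), whose median intervals overlapped, and in distal pairs strong for both factors (36 and 43 bp). The chromatin of the factors was fixed differently and the reads differed in number, so these distances compare the lists and not only the proteins.

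Sequence features separated the classes. In windows of 101 bp around the summit, the AP-1 consensus was found in 1.48% of all gap-free windows of hg38, in 26.5% of DPF3a summits (25.9 to 27.0) and 22.8% of SMAD4 summits (22.3 to 23.4) at paired sites outside promoters. DPF3a peaks outside promoters that touched no SMAD4 peak held it almost as often (24.2%, 23.5 to 24.8), whereas the SMAD4 peaks there that touched no DPF3a peak held it in 8.38% (7.78 to 9.03). The TEAD consensus ACATTCC behaved alike, at 5.12% of paired and 5.48% of lone DPF3a summits and 4.65% of paired and 1.99% of lone SMAD4 summits outside promoters (genome 1.61%). The RUNX consensus was at 4.58% of paired and 3.79% of lone DPF3a summits and 4.44% of paired and 2.65% of lone SMAD4 summits outside promoters (genome 0.881%). At paired sites in promoters, SP/KLF letters were found under 4.87% of the DPF3a and 5.13% of the SMAD4 summits (genome 0.142%). The SMAD palindrome was rare throughout but went the other way. It was found in 0.655% of lone distal SMAD4 summits (49 of 7478, 0.496 to 0.865), 0.185% of paired ones (42 of 22667), 0.0318% of lone distal DPF3a summits (5 of 15726) and 0.0503% of the genome windows. The highest share in any group examined was 3.73% (5 of 134, 1.60 to 8.44), at SMAD4 summits of distal pairs where SMAD4 was in the top and DPF3a in the bottom 25%. The GC-rich SMAD site GGCGCC was found in 14.1% of lone and 13.2% of paired SMAD4 promoter summits (genome 0.738%), whose median GC content was 67.3% in both groups, and base composition alone raises such a share. In the corner pairs, the AP-1 consensus was at 33.1% of DPF3a summits where DPF3a was strong and SMAD4 weak, and at 2.37% in the reverse case. The first corner was 94.3% distal and the reverse 79.7% in promoters. Over all paired DPF3a summits the share was 26.5% outside promoters and 8.50% in them, so this contrast also compares kinds of site. A match is a sequence description and not a binding site.

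The strongest pairs, by the product of percentiles among pairs in the window of a protein-coding gene, were all distal. They lay in intron 3 of PRDM16, a zinc finger transcription factor gene, at chr1:3313268 (DPF3a) and chr1:3313243 (SMAD4) with 156 and 289 reads; in intron 3 of TSPAN18 (96 and 305); in intron 1 of THEMIS2, a signalling adaptor gene (158 and 174); in intron 1 of the gene ENSG00000286022, which has no symbol in the annotation (115 and 121); and upstream of INA, inside the nucleotidase gene NT5C2 but outside its canonical transcript (133 and 109). Fold enrichments were between 17.6 and 22.3 and summit distances between 7 and 31 bp. PRDM16, ENSG00000286022 and the INA site were shared with p300. Such sites are in the dark corner of the map of percentiles.

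At gene level, 13190 of the 20015 protein-coding genes (65.9%) had a DPF3a summit, 14483 (72.4%) a SMAD4 summit, 12644 (63.2%) both and 10830 (54.1%) a paired site. Only DPF3a summits were found at 546 genes (2.73%, 2.51 to 2.96) and only SMAD4 summits at 1839 (9.19%, 8.80 to 9.60), and 4986 had neither. Genes of 1 factor thus mostly belonged to SMAD4, although the DPF3a list is the longer. These shares are the background for every gene list below. The windows held 62.4% of the DPF3a and 66.1% of the SMAD4 summits, and 64.0% of the pairs had both summits in the same window. In 1814 genes (9.06%) with both factors, no paired site was found; 68.0% of these had a single DPF3a summit and 73.6% a single SMAD4 summit. Over all protein-coding genes the numbers of DPF3a and SMAD4 summits had a Spearman's rank correlation of 0.81, and longer windows collect more of both.

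Genes with SMAD4 alone and DPF3a alone were of different kinds. At SMAD4-only genes, 72.7% of the summits were in promoters, the median window was 22661 bp, and 83.5% of genes had 1 summit. At DPF3a-only genes, 13.1% of the summits were in promoters, the median window was 50714 bp, and 75.3% of genes had 1 summit. A DPF3a summit was within 20000 bp of the window in 62.0% of the SMAD4-only genes, and a SMAD4 summit within 20000 bp in 42.3% of the DPF3a-only genes. When only 1000 bp to either side of the gene start counted, 7695 genes had both, 3165 SMAD4 only and 211 DPF3a only. Window length changed the balance. In the 10 bins of genes by window length, the shortest (median 6876 bp) had 217 SMAD4-only and 27 DPF3a-only genes, a ratio of 8.04, and the longest (median 271346 bp) 44 and 123, a ratio of 0.358. The share of genes with a paired site rose over the same bins from 17.7% to 78.7%.

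**Figure D5:**
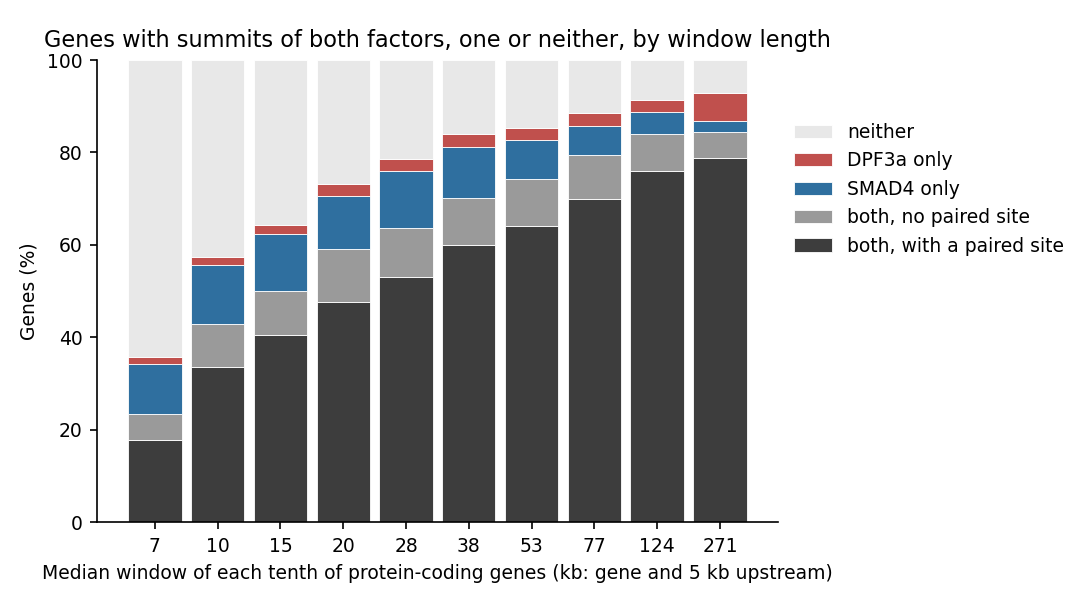
Share of protein-coding genes with a paired site, with both factors but no paired site, with SMAD4 only, with DPF3a only and with neither, in 10 bins by the length of the gene window in kb. SMAD4-only genes make up 10.8% of the shortest bin, and DPF3a-only genes 1.35% of the shortest and 6.14% of the longest.

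Some gene families departed from these shares. Of 63 histone genes, which are short, intron-poor and clustered, 35 (55.6%, 43.3 to 67.2) had SMAD4 summits only, 3 DPF3a only and 6 a paired site, where the bin of shortest genes had 10.8% SMAD4 only. Of 86 ribosomal protein genes, 29 (33.7%, 24.6 to 44.2) had SMAD4 only, 1 DPF3a only and 31 (36.0%, 26.7 to 46.6) a paired site. The bin of their median window (10548 bp) had 12.75% SMAD4 only and 33.45% with a paired site, so only the first share departed. SMAD4 summits lay within 1000 bp of the start of 84.9% of the ribosomal protein genes and DPF3a summits of 46.5%. HOX genes, the clustered patterning factors, had SMAD4 only in 12 of 39 (30.8%, 18.6 to 46.4), beside 12.75% in the bin of their median window. A summit counts in every window that holds it, and the intervals take each gene as separate. How many HOX or histone genes count the same summit through overlapping windows was not examined. The 509 ZNF genes, mostly zinc finger repressors, had SMAD4 only in 114 (22.4%, 19.0 to 26.2) against 9 with DPF3a only. The bin of their median window had 12.4% SMAD4 only. In both the histone and the ZNF family neighbours resemble each other in sequence, and the authors removed reads of low mapping quality, so these counts are uncertain. Olfactory receptor genes, which are silent outside sensory neurons, had neither in 397 of 415; 8 had DPF3a only and 1 SMAD4 only. Of 53 clustered protocadherin genes, which encode adhesion proteins of neurons, 22 had a paired site (41.5%, 29.3 to 54.9) and 30 neither. Genes in the bin of their median window (115198 bp) had a paired site in 76.1%. How many of the 22 count the same pair through overlapping windows was not examined. Of 55 keratin genes, 14 had a paired site (25.5%, 15.8 to 38.3), beside 33.45% in the bin of their median window (12098 bp), which the interval covers.

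Genes of the TGF-β pathway were ordered by role. Of 13 receptor genes, 12 had a paired site (92.3%, 66.7 to 98.6, beside 54.1% of all genes), and ACVRL1, the type I receptor of endothelial cells, had no summit. The median window of these genes was 92542 bp, and genes in the bin of that length had a paired site in 70.0%. The strongest shared sites were distal. ACVR1, a type I BMP receptor, had 5 pairs, the strongest in intron 3 with 44 DPF3a and 95 SMAD4 reads and summits 8 bp apart. TGFBR3 (betaglycan, a co-receptor that presents TGF-β) had 5 pairs, the strongest in intron 2 with 59 and 73 reads. BMPR1B had 3, among them the palindrome site printed above, with 41 and 84 reads. TGFBR2, the type II receptor that binds TGF-β, had 3 pairs, and TGFBR1, its signalling partner, 1. Of 19 ligand genes and genes of ligand storage, 13 had a paired site (68.4%, 46.0 to 84.6), beside 53.0% in the bin of their median window (25372 bp). LTBP1, which tethers latent TGF-β to the matrix, had 6 and TGFB1 5, and TGFB1's strongest lay at the promoter with 34 and 123 reads and summits 195 bp apart. GDF15 had 4, including the promoter site above with 60 and 130 reads. BMP2 was the ligand gene with SMAD4 only, at exon 1 and exon 2 with fold enrichments of 7.10 and 4.21, and BMP4, NODAL and INHBE had neither.

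Of 23 genes of SMAD proteins and their regulators, 15 had a paired site (65.2%, 44.9 to 81.2), close to the 64.1% in the bin of their median window (60903 bp). SMAD3 had 16 DPF3a and 16 SMAD4 summits in its window, of which 14 were paired; SMAD6, an inhibitory SMAD of the BMP branch, had 9 paired of 10 and 11; and PMEPA1, a membrane protein that restrains TGF-β signalling, had 4 of 5 and 6. At the strongest site of SMAD3 both factors had 74 reads with summits 4 bp apart, and at that of SMAD6 121 and 129 reads, 9 bp apart. At PMEPA1 the counts were 112 and 351 in intron 1. The members with SMAD4 only were FST and NOG, secreted inhibitors of activins and BMPs, with highest fold enrichments of 6.46 and 3.18, and LEMD3, a SMAD-binding protein of the nuclear envelope, with 6.95. SMAD1, SMAD9 and TGIF1, a repressor of SMAD targets, had both factors but no paired site. Of 21 genes known as TGF-β targets, 15 had a paired site (71.4%, 50.04 to 86.19). The bin of their median window (17144 bp) had 40.6%, below that interval, and all genes had 54.1%, within it. The bin is a rough match, since their windows ran from 6233 bp (ID1) to 212398 bp (COL4A2). COL4A2, a basement membrane collagen, had 14 pairs from 19 and 18 summits, TGFBI, a matrix protein, 5, and HMGA2, a chromatin protein of mesenchymal transition, 4. CDKN2B, COL1A2 and TAGLN had neither.

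Of 28 genes of SWI/SNF subunits, 25 had a paired site (89.3%, 72.8 to 96.3), 1, PHF10, had both apart, and ACTL6B, a neuronal subunit, and SMARCB1, a core subunit, had no summit. No subunit gene had 1 factor only. Their median window was 51851 bp, and genes in the bin of that length had a paired site in 64.1%. A DPF3a summit lay within 1000 bp of the start of 18 of the 28 genes and a SMAD4 summit of 21. The median percentile of the strongest summit was 52.0 for DPF3a and 74.1 for SMAD4. ARID1B and DPF3 had the most pairs, 5 each, followed by ARID1A, BICRA, SMARCC1 and SMARCD3 with 3 each. DPF3 had 10 DPF3a and 7 SMAD4 summits, the shared ones between intron 7 and exon 11, and the strongest DPF3a summit, with a fold enrichment of 15.6 in intron 1, was unpaired.

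Of 30 genes of adhesion, protease activity and mesenchymal transition, 19 had a paired site (63.3%, 45.5 to 78.1), beside 70.0% in the bin of their median window (63357 bp). ITGB1, an integrin, had 9 pairs from 10 and 10 summits, MET, the receptor of hepatocyte growth factor, 8, and CDH2, N-cadherin, 7. LOX, a collagen crosslinking enzyme, SPARC, a matrix protein, and MMP14, a protease, had SMAD4 only, and the collagen COL6A3 and the collagenase MMP1 DPF3a only. A SMAD4 summit lay 2371 bp outside the window of COL6A3 and a DPF3a summit 1815 bp outside that of SPARC. Of 22 genes of AP-1, RUNX and TEAD factors and their partners, 16 had a paired site (72.7%, 51.8 to 86.8). The interval covers the 53.0% in the bin of their median window. That bin is a rough match, since their windows ran from 6929 bp (JUND) to 1221867 bp (RUNX1). RUNX1 led with 36, TEAD1 had 12 and RUNX2 10, and FOS, BATF and JDP2, which lie close together on chromosome 14, had SMAD4 only. Of 19 genes of hypoxia factors, their regulators and targets, 16 had a paired site (84.2%, 62.4 to 94.5) and none lacked SMAD4. The interval covers the 64.1% in the bin of their median window. EGLN3, an oxygen sensor, had 7, TGFA, a growth factor, 6 and HK2, a glycolytic enzyme, 6, whereas ADM, a vasodilator peptide, had SMAD4 only with a fold enrichment of 2.66.

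Of 13 genes of renal epithelium, 7 had a paired site (53.8%, 29.1 to 76.8, beside 64.1% in the bin of their median window). CUBN, a receptor of the proximal tubule, had 16, the nephron factors PAX8 and PAX2 4 each, and LHX1, LRP2, UMOD and AQP2 were among those with no summit of either factor. Of 8 marker genes of other tissues, 7 had no summit of either factor, and GFAP, an astrocyte filament, had 3 pairs. Peak lists give no expression, so these genes do not check the cell type.

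The genes richest in paired sites were long. RUNX1 had 36 pairs from 52 DPF3a and 46 SMAD4 summits in a window of 1221867 bp, RAD51B, a DNA repair gene, 33, KAZN, a gene of cell junctions, 27, FRMD4A, a polarity scaffold, 26 and AOPEP, a peptidase, 24. Per length, among genes with at least 5 pairs, the 5 densest had windows between 21527 and 35888 bp. LTBR, the lymphotoxin receptor, had 5 pairs in 21527 bp (23.2 per 100 kb), and its neighbour SCNN1A, a subunit of the epithelial sodium channel, 6 (16.7 per 100 kb), with windows that overlap. ALDH3B1, an aldehyde dehydrogenase, had 19.5, CDC42EP4, a Cdc42 effector, 18.0 and CARD10, an NF-κB adaptor, 17.6. In CDC42EP4 all 6 summits of each factor were paired.

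Genes with the most summits of a single factor showed the same contrast as the classes. The 5 with DPF3a only were long, with windows between 565951 and 1342937 bp. CNTN5, a contactin, had 11 summits in its promoter and introns with fold enrichments between 4.96 and 15.8, CLSTN2, a calsyntenin, 11 in introns (5.36 to 15.0), GABRG3, a GABA receptor subunit, 8 (4.59 to 14.7), and CNTNAP5, a neurexin family gene, and SLC4A10, a bicarbonate transporter, 6 each. The nearest SMAD4 summit was between 5661 bp (SLC4A10) and 336812 bp (GABRG3) outside the window. The 5 with SMAD4 only were ROS1 with 7, BCL11B and HOXD3 with 5, and JSRP1 and NOSIP with 4. BCL11B, a zinc finger factor, had them from its upstream region to intron 3 (4.87 to 8.48), and HOXD3 at low values (3.64 to 6.10). The summits of ROS1, a receptor tyrosine kinase gene, lay in exons 39 and 41 and introns 31 to 36, with fold enrichments up to 18.1, and 6 of its peaks touched an exon. Among genes with many summits and no pair, the first, which is not named here, had 3 DPF3a and 15 SMAD4 summits. The next ones went the other way: FOXP2 had 11 DPF3a and 2 SMAD4, NTRK2 9 and 4, and MDGA2, a gene of neuronal adhesion, 9 and 1.

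The exonic position at ROS1 was followed over all genes, a comparison chosen after these values were seen. Of the peaks outside promoters that touched no peak of the other list, 867 of 7478 SMAD4 peaks (11.6%) and 622 of 15726 DPF3a peaks (3.96%) touched an exon of a canonical transcript. In the DPF3a list 5 genes had 3 such peaks and none more: TLN2, RAB8B, TTN, ABCC9 and NSFL1C. In the SMAD4 list 20 genes had at least 3, with 97 peaks in all and up to 17 in 1 gene. The 3 genes with the most, which are not named here, had 17, 11 and 7. ROS1 had 6 such peaks, ALK 5, KIT and FGFR2 4 each, and MET, JAK2, RET, DDR2, PDGFRA, MTOR, ERG and NTRK2 3 each, and the others had between 3 and 5. The 97 peaks were strong, with a median percentile of 70.7 and 49 reads, and 23 of the 97 touched a p300 peak. The strongest SMAD4 summit in the SMAD4 gene itself was of the same kind, in exon 9 with a fold enrichment of 24.2 and no DPF3a peak. Whether these exon peaks mark SMAD4 on chromatin was not tested, so neither the exon 9 peak nor the place of ROS1 at the head of the SMAD4-only genes can be read as SMAD4 binding from these lists alone. The results without exon peaks outside promoters, added after the data were seen, are given with the other alternatives.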

How the data were processed

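The ChIP-seq samples of DPF3a and SMAD4 were grouped by the factor that each title names. The reads were trimmed by the authors with cutadapt, mapped to hg38 with Bowtie2 2.3.5.1, filtered on mapping quality, freed of duplicates with Picard and used for peak calling with MACS2 2.2.5, which gave 1 list for both replicates of a factor; how they were combined is not given in the sources used here. No control library is named. The score deposited by the authors is over 50 in every peak (lowest 51). Fold enrichment, as deposited, is a ratio of summit pileup to local background. The −log10 p and −log10 q deposited by the authors compare that pileup with a Poisson background, and −log10 p with the fold gave the whole reads, while depth assumed a fragment length of 200 bp and 2.7 Gb of mappable genome. The p300 list served only to mark shared sites.

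Pairs were found with Python 3.11.15, NumPy 2.4.6 and pandas 2.3.3, and pairing was compared with bedtools 2.31.1, with identical pairs, and tested on simulated data. Genes, exons and transcript starts are those of GENCODE 44 on hg38. Sequences were read with pysam 0.24.0. Besides the motifs spelled out in the text, the CAGA box AGCCAGACA, the CTCF core AGGGGGC, ETS CCGGAAGT, NFY GATTGGC, NRF1 GCGCATGCG and the E-box CACGTG were searched on both strands. The letters of the CTCF core and SP/KLF can overlap in GC-rich sequence. No p-value was computed, since no replicate values exist.

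The genes named are the 5 strongest and 10 most unequal pairs, the 5 genes leading each gene class, and up to 3 members of each of 10 lists by paired sites and by summits of 1 factor. Other members of lists are named where their class is counted. Members and lists were chosen with earlier results of these data known. Some genes that this rule picks are not reported or named here. Alternatives were scores over 100 and 200, lists of equal size, overlap of 1 bp, summits within 200 bp, ranks by −log10 q, promoter or other pairs alone, all annotated genes, gene starts alone and 20000 bp upstream. Leaving out exon peaks and ranking by reads were added after the data were seen.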

Additional observations from a re-analysis of the deposited data

How the results depend on the processing

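No paired analysis was possible because each factor has 1 list for both replicates, and for the same reason leaving out a replicate was not possible. A count was held to have moved when it changed by over 1.5 times, a rank correlation when it changed by over 0.05 and a median when it left its binomial interval. The cause of the changes was not tested, beyond the fewer peaks or genes that an alternative counts by construction.

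With scores over 100 there were 19050 pairs, with scores over 200 8596. The rank correlation was 0.42 and 0.58, the summit distance 42 and 34 bp, the width ratio 0.967 and 0.959, genes with a paired site 7060 and 3312, and SMAD4-only genes 5172 and 7614 under these scores, and genes with both factors were 4436 over 200. Pairs with a summit in a promoter gave a correlation of 0.28, 75 bp and a ratio of 1.18, and the others 0.57, 43 bp and 0.916. Ranks by −log10 q gave a correlation of 0.23. Overlap of 1 bp gave 52 bp and 0.986, summits within 200 bp 45 bp and 0.966, lists of equal size a ratio of 0.969 and the lists without exon peaks 0.973. Gene starts alone gave 7695 genes with both, 211 with DPF3a only, 3165 with SMAD4 only and 6178 with a paired site. All annotated genes gave 20746, 2221, 3700 and 17735.

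Without exon peaks outside promoters there were 2060 SMAD4-only and 693 DPF3a-only genes and 28746 pairs. SMAD4-only genes outnumbered DPF3a-only genes in all 7 alternatives of these counts. Depth limits both lists, with a median of 25 reads at the summit for DPF3a and 39 for SMAD4.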
